A study of Mus musculus with 2 samples.

Results

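The 10 genes described here encode T-box transcription factors: T (also called Brachyury), Tbx6, Tbx4, Tbx2, Tbx3, Tbx20, Tbx18, Tbx1, Tbx5 and Eomes. They were found by symbol among the 32286 features counted, from a list drawn up with earlier results of these data known. The tissue was the caudal end of embryonic day 8.5 mice of the C57BL/6J strain, of wild-type genotype, pooled over embryos before it was dissociated into single cells. The labels give 1 group of 2 droplet libraries, replicate 1 and replicate 2, made with a 10x Genomics kit that reads the 5′ end of transcripts. The comparisons are therefore between cell types within this tissue, each with n = 2 libraries.

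T-box factors share a DNA-binding domain, and some of them activate transcription while others, such as Tbx2 and Tbx3, mainly repress it. In the mouse tail end, T is required to make and extend the posterior body and the notochord, and Tbx6 commits cells to paraxial mesoderm, which segments into somites. Others pattern tissues further to the side: Tbx4 acts in the allantois and later the hindlimb, Tbx5 in forelimb and heart, Tbx20 in heart and lateral mesoderm, and Tbx18 in the front part of each somite. Ripply proteins bind T-box factors and recruit Tle co-repressors to them.

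Cell types were assigned with lists of 5 to 7 marker genes that hold no T-box gene. The presomitic mesoderm list was Msgn1, Dll1, Dll3, Hes7, Lfng and Cited1. Markers may themselves depend on T-box factors, and the part of this in the results below was not tested. A barcode entered a gate when at least 3 markers of that list had a unique molecular identifier (UMI, one counted RNA molecule) and the list's share of detected markers was above that of every other list. Barcodes with at least 2000 UMIs and 0.3 to 10% mitochondrial UMIs were used, 11244 in replicate 1 and 8328 in replicate 2, with medians of 17872.5 and 13685.5 UMIs. The gates took 82.6% and 81.1% of them, and 12 gates had at least 50 cells in each library; levels and orders below are over these 12. No gate had more markers of another list than of its own among its top 10 genes, which the choice of cells by these markers favours. Markers of another list were Hand1 and Foxf1 (lateral plate) in allantois and Spin2c (allantois) in lateral plate. Spink1 (gut endoderm) was among those of extraembryonic endoderm and Hes3 (caudal epiblast) among those of neural cells. The libraries shared 114 of these barcode sequences. Haemoglobin RNA differed between the libraries outside blood: the 12 gates held 0 to 22.2 CPM in replicate 1 and 50.4 to 343 CPM in replicate 2, and its part in the results below was not tested. Levels are CPM, that is UMI counts summed over a gate's cells in 1 library and divided by all UMIs of those cells and multiplied by 1000000. CPM values of different genes are not corrected for length, so levels are compared between gates and not between genes.

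Promoter sequences from RefSeq on GRCm38.p6 covered 7 of the 10 genes, while Tbx2, Tbx3 and Tbx5 had no entry. The windows of T and Tbx6 are shown because most of the results turn on these genes. Each line gives the 250 bases before the gene's start, 5′ to 3′ on the plus strand. The T window is chr17:8434173-8434422 and the Tbx6 window is chr7:126781233-126781482. Capitals mark TCAAAG, the reverse complement of the Tcf/Lef core CTTTGA bound by effectors of Wnt signalling.
T: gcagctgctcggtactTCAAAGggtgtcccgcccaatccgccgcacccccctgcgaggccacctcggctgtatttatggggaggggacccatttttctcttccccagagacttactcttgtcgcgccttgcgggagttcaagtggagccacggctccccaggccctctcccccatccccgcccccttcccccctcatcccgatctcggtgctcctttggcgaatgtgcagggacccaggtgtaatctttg
Tbx6: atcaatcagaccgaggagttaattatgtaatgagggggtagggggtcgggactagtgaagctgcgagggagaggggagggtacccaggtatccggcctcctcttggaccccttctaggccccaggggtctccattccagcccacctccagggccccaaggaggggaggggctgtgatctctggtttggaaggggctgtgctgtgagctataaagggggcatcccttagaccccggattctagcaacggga
Both strands of all 8 member windows were searched for CTTTGA, for the T-box half-site AGGTGTGA and for its shorter core GTGTGA, whose letters lie within the half-site. The only match among the 8 windows was the marked one in T, 234 bases before the start. CTTTGA occurred in 13.8% of the 32851 promoter windows of the same length, AGGTGTGA in 1.12% and GTGTGA in 12.3%. A match describes letters and is no evidence of binding, and no match says only that these letters are not in this window.

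The genes lie on 6 chromosomes in GRCm38, and 2 pairs are neighbours. Tbx2 (chromosome 11, 85832551 to 85841948, plus strand) ends 44.5 kb before Tbx4 (85886422 to 85916097, plus strand). Tbx3 (chromosome 5, 119670669 to 119684724, plus strand) ends 147.9 kb before Tbx5 (119832668 to 119885219, plus strand). T occupies chromosome 17, 8434423 to 8442496, and Tbx6 chromosome 7, 126781483 to 126785560. Tbx20, Tbx18 and Eomes are on chromosome 9 and Tbx1 on chromosome 16. An antisense gene, Tbx3os1, overlaps Tbx3 in 115 exonic bases and another, Gm33460, overlaps Eomes in 118. On the strand opposite Tbx18, D030062O11Rik overlaps it in 970 exonic bases and is not among the features counted. Nothing used here gives the strand setting of the counting, so reads of such a pair may not be separable. Tbx3os1 itself reached 19 and 21 UMIs in the lateral plate gate, its highest, in replicates 1 and 2.

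**Figure D1:**
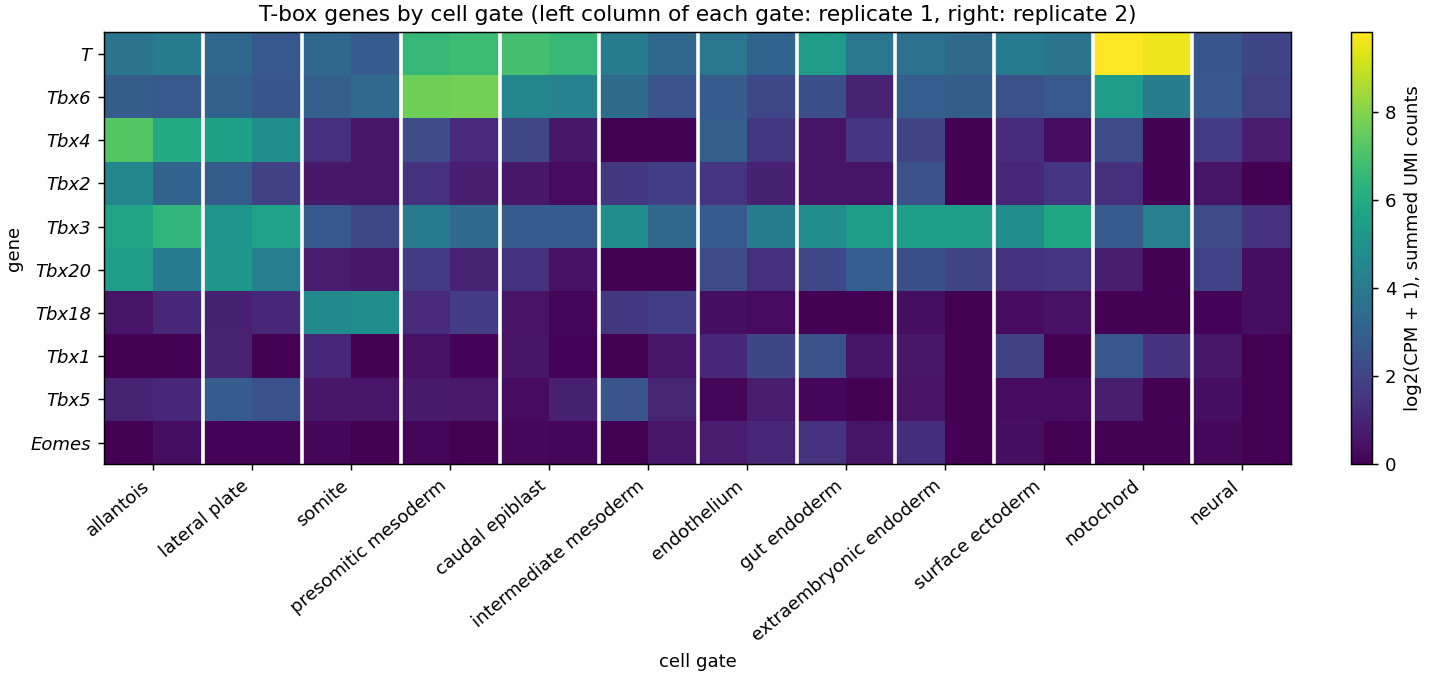
Level of each T-box gene in the 12 gates, as log2(CPM + 1) of summed UMI counts, with replicate 1 in the left and replicate 2 in the right column of each gate. T is brightest in notochord, Tbx6 in presomitic mesoderm, Tbx18 in somite, and Tbx4, Tbx2 and Tbx20 in allantois and lateral plate, while Eomes and Tbx1 are dark throughout.

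The notochord gate was named for the rod of axial mesoderm beneath the neural tube, and no list told node cells apart from it. T had 893 and 760 CPM in this gate in replicates 1 and 2. It had 119 and 94.7 CPM in caudal epiblast, the progenitor layer at the tail end, and 93.6 and 105 CPM in presomitic mesoderm, the unsegmented tissue derived from it. Notochord stood above all other gates without overlap, whereas the caudal epiblast and presomitic mesoderm ranges overlapped. Gut endoderm followed with 41.9 and 13.4 CPM, so that it was set apart from the next gates in replicate 1 and not in replicate 2. From allantois (12.8 and 16.2 CPM) down to extraembryonic endoderm (11.1 and 9.49 CPM), neighbours in the order overlapped. The lowest levels were those of somite (9.04 and 5.96 CPM), lateral plate (8.71 and 5.52 CPM) and neural cells (5.23 and 3.10 CPM).

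The share of cells with a T UMI gave notochord first as well. After each cell was thinned to 9000 UMIs, T was found in 95.9% (95% exact interval 88.6 to 99.2) and 89.7% (75.8 to 97.1) of notochord cells in replicates 1 and 2. The thinned share was 51.4% and 42.3% in caudal epiblast and 42.7% and 48.8% in presomitic mesoderm, and without thinning these were 66.4% and 54.4%, and 52.2% and 57.8%. Thinning left out 172 and 98 caudal epiblast cells and 332 and 190 presomitic cells that were shallower. Caudal epiblast cells had medians of 17988 and 15324 UMIs, and neural cells, a background for T, had 21186 and 15585.5 UMIs and thinned shares of 3.23% and 2.49%. Blood and endothelium together gave 7.22% and 5.38% at medians of 21811 and 16110.5 UMIs, with 0 blood cells, and so endothelium alone, in replicate 1. Shares near these, such as 3.06% and 3.57% in somite, are at background.

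Tbx6 was highest in presomitic mesoderm, with 196 and 213 CPM in replicates 1 and 2. It had 40.4 and 16.6 CPM in notochord and 21.8 and 19.5 CPM in caudal epiblast. Presomitic mesoderm stood apart without overlap, and notochord and caudal epiblast overlapped each other. In all other gates Tbx6 stayed between 0.958 and 9.98 CPM. Thinned shares were 68.8% (66.4 to 71.2) and 74.8% (72.0 to 77.4) in presomitic cells, with 78.7% and 83.2% unthinned. The thinned share was 13.8% and 12.04% in caudal epiblast, against 2.89% and 2.49% in neural cells. Blood and endothelium gave 5.00% and 2.20%, again endothelium alone in replicate 1.

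The share of T in the UMIs of both genes was compared between gates, and it is not a ratio of their levels. Of the UMIs of T and Tbx6 together, T held 95.7% (94.4 to 96.7) and 97.9% (96.1 to 99.0) in notochord. It held 84.5% (83.5 to 85.5) and 82.9% (81.2 to 84.5) in caudal epiblast and 91.2% and 93.3% in gut endoderm. In presomitic mesoderm it held 32.3% (31.3 to 33.3) and 33.0% (31.8 to 34.3). This was the lowest share among the 12 gates in each library, and in replicate 2 the intervals of somite (29.5 to 50.4) and extraembryonic endoderm (26.2 to 87.8) reached it. In neural cells the share was 49.6% and 53.8%, from 69 and 21 T UMIs and 70 and 18 Tbx6 UMIs.

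Tbx18, known for keeping the front part of the somite distinct, had 24.2 and 28.3 CPM in somite. The next highest was intermediate mesoderm with 1.996 and 2.52 CPM, from 2 and 5 UMIs. Somite stood above every other gate without overlap. Its thinned share in somite was 16.2% (12.5 to 20.4) and 20.5% (16.3 to 25.3), against 0.170% in replicate 1 and 0 of 402 neural cells in replicate 2, which allows up to 0.746%. The unthinned shares in somite were 26.1% and 27.8%. Gut endoderm and notochord had no Tbx18 UMI in either library.

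Tbx4 had 149 and 63.2 CPM in allantois, the bud of extraembryonic mesoderm that forms the umbilical vessels. It had 48.1 and 27.6 CPM in lateral plate and at most 6.92 CPM in the other 10 of the 12 gates. A primordial germ cell gate too small for the tests had 38.6 and 25.2 CPM. Allantois led and lateral plate came next in both libraries, with both values in replicate 1 higher than in replicate 2. The thinned share in allantois was 51.7% (44.6 to 58.8) and 26.4% (20.4 to 33.1), and in lateral plate 15.2% and 11.4%, against 1.19% and 0.249% in neural cells. Tbx20 had 41.1 and 15.1 CPM in allantois and 36.9 and 17.6 CPM in lateral plate, whose ranges overlapped. Its thinned shares were 22.9% and 9.64% in allantois and 20.99% and 10.3% in lateral plate, against 1.19% and 0 of 402 in neural cells. Neither Tbx4 nor Tbx20 had a UMI in intermediate mesoderm, from 51 and 118 cells. In that gate 2 UMIs made 1.996 CPM in replicate 1 and 1 UMI made 0.505 CPM in replicate 2, so low levels could be missed. Of its cells, 45 and 77 had only the minimum of 3 markers.

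Tbx3 had its higher levels in extraembryonic, lateral and epithelial tissues, with 52.1 and 86.5 CPM in allantois, 34.8 and 49.7 CPM in lateral plate, 44.7 and 42.7 CPM in extraembryonic endoderm, 27.7 and 53.6 CPM in surface ectoderm and 28.0 and 43.6 CPM in gut endoderm. Within each library allantois was the highest of the 5 and lateral plate was above gut endoderm, while extraembryonic endoderm and surface ectoderm changed places between the libraries. These differences were not tested against each other. The lowest were somite with 5.45 and 3.31 CPM and neural cells with 3.79 and 1.62 CPM. Its thinned share was 30.8% and 42.6% in allantois, 24.8% and 32.7% in lateral plate and 33.9% and 36.8% in extraembryonic endoderm, against 2.72% and 0.995% in neural cells. Tbx2, a close relative that also represses, had 21.4 and 7.67 CPM in allantois and 6.34 and 2.78 CPM in lateral plate.

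Tbx5 had 6.04 and 4.57 CPM in lateral plate, with thinned shares of 5.00% and 3.75% against 0.170% and 0 of 402 in neural cells. Intermediate mesoderm had 4.99 and 1.01 CPM, from 5 and 2 UMIs. Tbx1, known from pharyngeal and cardiac development further forward in the embryo, had 5.34 and 1.66 CPM in notochord, 4.33 and 0.479 CPM in gut endoderm and 1.12 and 3.11 CPM in endothelium. Its 218 and 24 UMIs over all retained barcodes are few, with replicate 2 at the lower level in 9 of 12 gates. Eomes, which acts earlier in gastrulation, had 59 and 13 UMIs in all. It had 1.60 and 0.479 CPM in gut endoderm, the highest gate in replicate 1, and 0.669 and 1.11 CPM in endothelium, the highest in replicate 2 from 5 UMIs. In gut endoderm it was found in 1.09% of thinned cells in replicate 1 and 0 of 136 in replicate 2, which allows up to 2.21%.

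The libraries differed in level for several members. T was lower in replicate 2 in 10 of 12 gates, Tbx4 in 10, Tbx6, Tbx2, Tbx20, Tbx1 and Tbx5 in 9 each and Eomes in 7, whereas Tbx3 and Tbx18 were higher there in 7. Each test below includes the library as a term, so that a shift common to all gates is not counted as a difference between them.

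Each gate was set against the mean of the other gates with edgeR's quasi-likelihood test on summed counts, with Benjamini-Hochberg adjustment over all genes tested and a threshold of 0.05. Only T, Tbx6, Tbx2, Tbx3 and Tbx5 had a count in every gate, and the log mean over gates is undefined for the other 5. Of their 60 tests, 15 were called higher and 17 lower. Over all genes with a count in every gate, 11.5% of tests were called higher and 9.38% lower.

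T was higher in 3 gates: by 5.51 ± 0.15 on the log2 scale in notochord (SE, adjusted p = 3.63e-14), 2.44 ± 0.15 in caudal epiblast (8.21e-09) and 2.35 ± 0.16 in presomitic mesoderm (1.38e-08). It was lower in neural cells (-2.57 ± 0.28, adjusted p = 2.89e-06), lateral plate, somite, extraembryonic endoderm, endothelium and surface ectoderm. Tbx6 was higher in presomitic mesoderm (4.80 ± 0.14, adjusted p = 1.09e-13), notochord (1.65 ± 0.32) and caudal epiblast (1.19 ± 0.18). It was lower in 5 gates: gut endoderm (-1.67 ± 0.32, and -2.96 in replicate 2 alone), neural cells (-1.27 ± 0.26), surface ectoderm, endothelium and lateral plate. T and Tbx6 were thus called higher in the same 3 gates, with notochord leading for T and presomitic mesoderm for Tbx6.

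Tbx2 was higher in allantois (3.43 ± 0.31, adjusted p = 4.29e-07) and lateral plate (1.70 ± 0.29). Its call in extraembryonic endoderm (1.33 ± 0.46) rests on replicate 1, since replicate 2 had no UMI there and gave -2.12 alone. It was lower in neural cells (-2.04 ± 0.61), gut endoderm (-1.63 ± 0.66, and -0.45 in replicate 2 alone) and caudal epiblast (-1.58 ± 0.45). These calls rest on few Tbx2 UMIs, 6 and 0 in neural cells, 5 and 1 in gut endoderm and 20 and 4 in caudal epiblast. Tbx3 was higher in 5 gates, allantois (2.18 ± 0.28), extraembryonic endoderm, lateral plate, surface ectoderm and gut endoderm, and lower in neural cells (-2.56 ± 0.44, and -3.42 in replicate 2 alone), somite and caudal epiblast. Tbx5 was higher in lateral plate alone (3.07 ± 0.34, adjusted p = 1.09e-06) and was called lower in no gate.

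**Figure D2:**
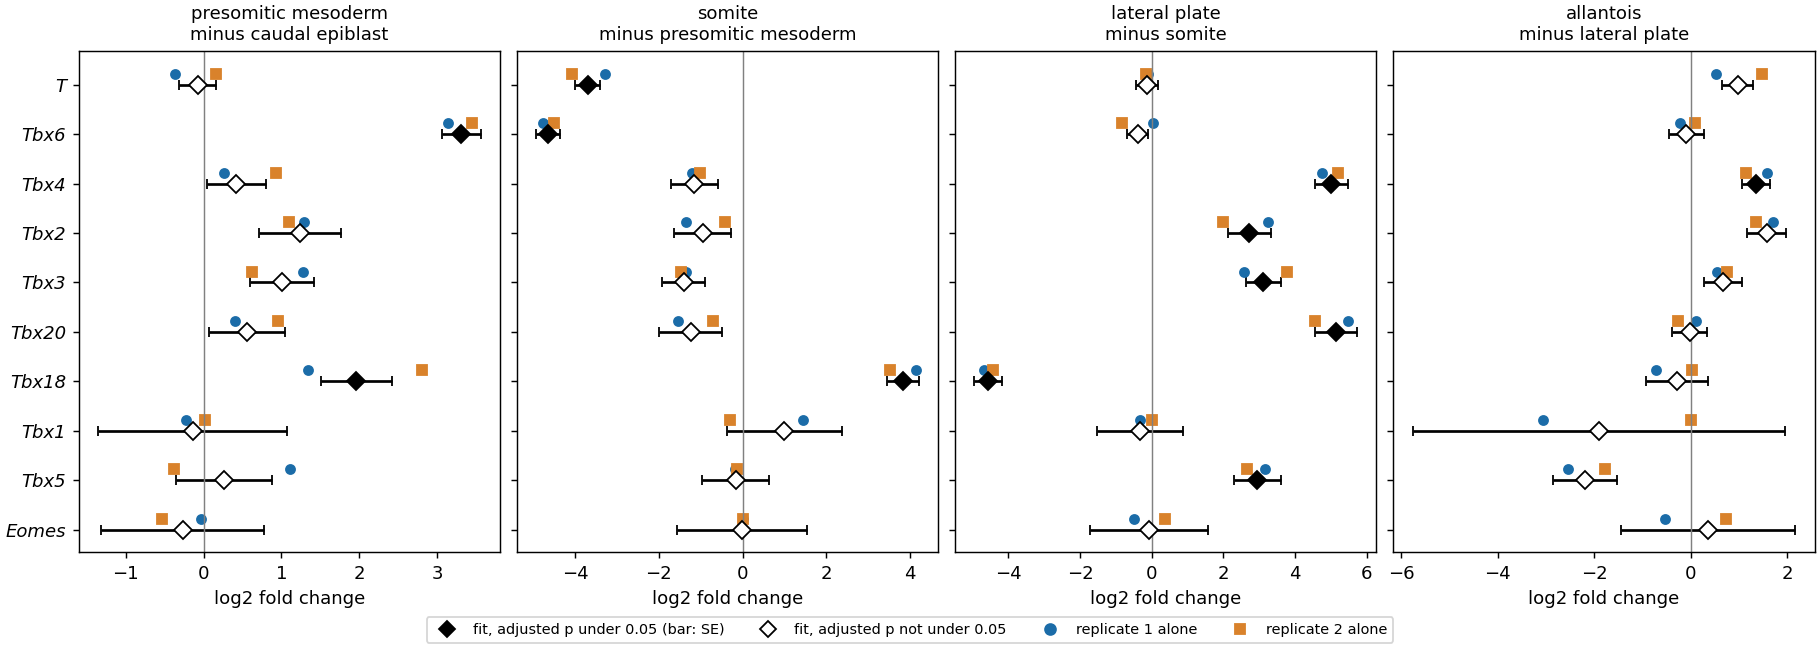
Log2 fold change of the 10 T-box genes in 4 comparisons of neighbouring tissues; diamonds are the fit to both libraries with SE bars, black where the adjusted p is under 0.05, and circles and squares are each library alone. Tbx6 and Tbx18 are called in presomitic mesoderm minus caudal epiblast, T, Tbx6 and Tbx18 in somite minus presomitic mesoderm, 6 genes in lateral plate minus somite, and Tbx4 in allantois minus lateral plate.

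Presomitic mesoderm was compared with caudal epiblast, the step at which progenitors become paraxial mesoderm. Of the 10 members 2 were called higher and 0 lower by edgeR, where 2.83% of 14533 genes were higher and 3.70% lower; 2428 genes had an unadjusted p under 0.05, and DESeq2 also called no member lower. Tbx6 was 9.92-fold higher in presomitic mesoderm (196 and 213 CPM) than in caudal epiblast (21.8 and 19.5 CPM), a log2 difference of 3.31 ± 0.25 (adjusted p = 3.5e-07). The groups did not overlap. Tbx18 was 3.89-fold higher, with 1.31 and 2.24 CPM in presomitic mesoderm and 0.427 and 0.110 CPM in caudal epiblast (1.96 ± 0.46, adjusted p = 0.00416), at low counts in both. Replicate 1 alone gave 1.34 for Tbx18 and replicate 2 alone 2.81. T differed by -0.08 ± 0.23 (adjusted p = 0.956), and each library alone gave a different sign. The members' median difference was 0.49, against -0.00054 over all genes.

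Somite was then compared with presomitic mesoderm, the step at which segments form. T was 12.9-fold lower in somite (9.04 and 5.96 CPM) than in presomitic mesoderm (93.6 and 105 CPM), with a log2 difference of -3.69 ± 0.30 (adjusted p = 9.23e-07). Tbx6 was 25.0-fold lower, with 6.78 and 9.11 CPM in somite and 196 and 213 CPM in presomitic mesoderm (-4.64 ± 0.29, adjusted p = 4.78e-08). With barcodes under the lower mitochondrial bound added, the Tbx6 difference was -3.85 ± 0.25 (adjusted p = 1.21e-07). Tbx18 was 14.3-fold higher, with 24.2 and 28.3 CPM in somite and 1.31 and 2.24 CPM in presomitic mesoderm (3.84 ± 0.38, adjusted p = 8.95e-06). For none of the 3 did the groups overlap, and the other 7 members were not called. Over all genes 2.99% were higher and 3.17% lower. The median over members was -1.05, against -0.01 over all genes.

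Lateral plate mesoderm, which lines the body cavity and gives rise to limb buds and gut wall, was compared with somite. Cardiac RNA stood at 24.2 and 4.46 CPM in lateral plate and 4.92 and 1.82 CPM in somite, and its part in the differences was not tested. Tbx20 was 35.5-fold higher in lateral plate (36.9 and 17.6 CPM) than in somite, where it had 5 and 3 UMIs, with a log2 difference of 5.15 ± 0.59 (adjusted p = 8.87e-06). Tbx4 was 32.3-fold higher (48.1 and 27.6 CPM against 1.59 and 0.497 CPM in somite, 5.01 ± 0.46, adjusted p = 1.23e-06). Tbx3 was 8.64-fold, Tbx5 7.75-fold and Tbx2 6.61-fold higher, with adjusted p of 0.000263, 0.00257 and 0.0022. Replicate 2 alone gave log2 differences of 4.55 for Tbx20, 3.77 for Tbx3 and 1.99 for Tbx2, where both libraries gave 5.15, 3.11 and 2.72, and Tbx4 gave 5.74 with doublets removed. Tbx18 was 23.6-fold lower in lateral plate (0.851 and 1.13 CPM) than in somite (24.2 and 28.3 CPM; -4.56 ± 0.39, adjusted p = 9.44e-07). Thus 5 of 10 members were higher and 1 lower, where 6.12% of all genes were higher and 4.28% lower. T (-0.13 ± 0.32) and Tbx6 (-0.38 ± 0.30) were not called. The thinned share of Tbx6 was 5.54% and 3.14% in lateral plate and 5.29% and 6.25% in somite, so that in replicate 2 somite was above the background shares given for neural cells and for blood and endothelium. Tbx6 was called lower (-1.18 ± 0.25, adjusted p = 0.00355) when barcodes under the mitochondrial bound were added. Without the library block the adjusted p of Tbx2 was 0.0556.

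Allantois was compared with lateral plate. Tbx4 was 2.56-fold higher in allantois (149 and 63.2 CPM) than in lateral plate (48.1 and 27.6 CPM), with a log2 difference of 1.36 ± 0.29 (adjusted p = 0.0263), the only member called by the edgeR fit with its filter on low counts. The call was lost with DESeq2 (adjusted p = 0.611) and with gates of at least 4 markers (adjusted p = 0.0690), while the value without the library block had an adjusted p of 1. Tbx2 differed by 1.58 ± 0.40 (adjusted p = 0.0664) and Tbx5 by -2.19 ± 0.66 (adjusted p = 0.112), and both had the same sign in each library. Over all genes 0.888% were called higher and 0.296% lower. No member was called lower by that fit or by DESeq2, and 1250 genes had an unadjusted p under 0.05. Without the filter Tbx2 was called higher (adjusted p = 0.0313) and Tbx5 lower (-2.22 ± 0.61, adjusted p = 0.0450), and with doublets removed T was called higher (1.33 ± 0.31, adjusted p = 0.0372).

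Within lateral plate, cells with Foxf1 and no Prrx1 UMI were compared with cells with Prrx1 and no Foxf1 UMI. Foxf1 is known from the splanchnic side next to the gut and Prrx1 from the somatic side next to the body wall. Both genes are also markers of the lateral plate list, and the position of these cells was not measured. Tbx20 had 55.1 and 23.7 CPM in 907 and 623 Foxf1-positive cells and 24.8 and 7.83 CPM in 111 and 238 Prrx1-positive cells. Tbx5 had 4.78 and 1.61 CPM in the Foxf1-positive and 10.97 and 12.9 CPM in the Prrx1-positive cells. The log2 differences were 1.34 ± 0.40 for Tbx20 (adjusted p = 0.175) and -1.79 ± 0.57 for Tbx5 (adjusted p = 0.189), the same way in both libraries. None of the 9 members tested was called by edgeR or DESeq2, where 0.531% of genes were higher and 0.166% lower and 1252 had an unadjusted p under 0.05. Without the filter on low counts Tbx20 was called (adjusted p = 0.0363).

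**Figure D3:**
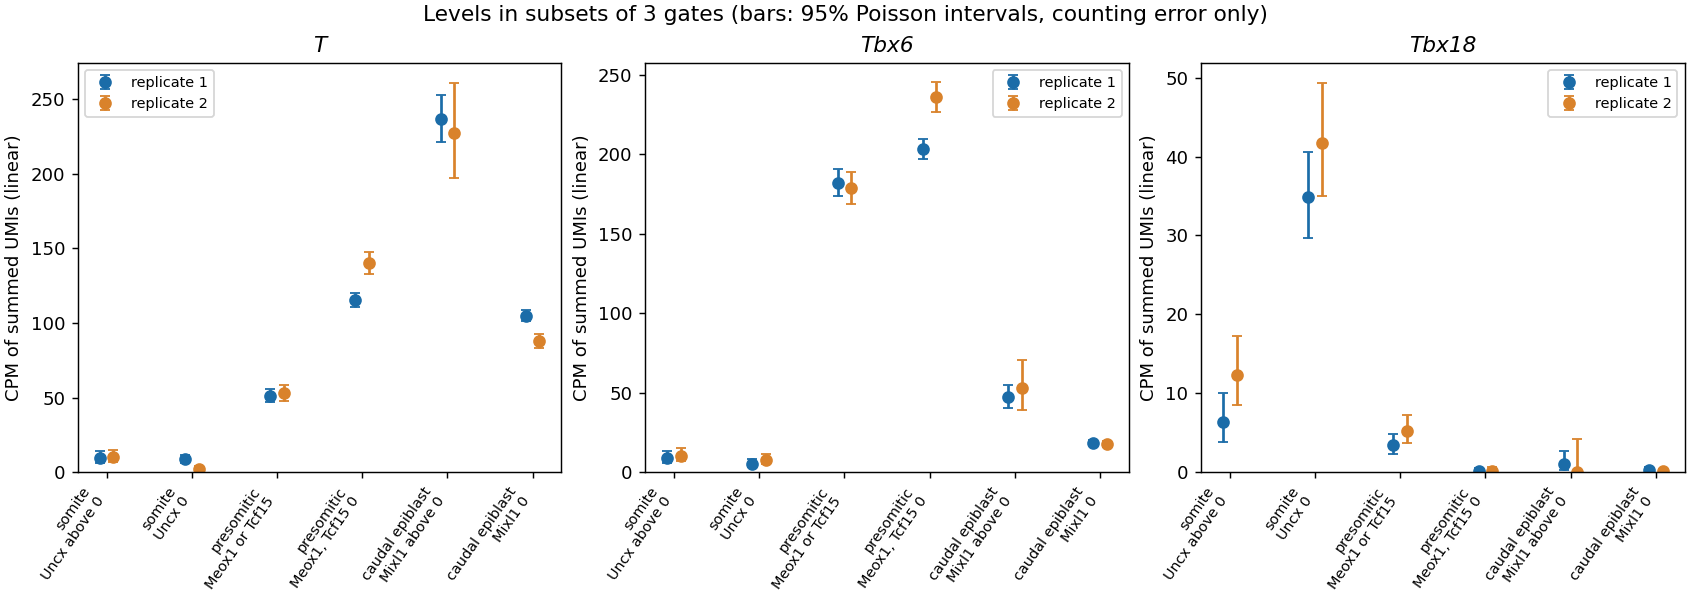
Level of T, Tbx6 and Tbx18 in subsets of somite, presomitic mesoderm and caudal epiblast, in CPM of summed UMIs for each library, with 95% Poisson bars that cover counting error only. T is highest in Mixl1-positive caudal epiblast, Tbx6 in presomitic mesoderm without Meox1 or Tcf15, and Tbx18 in somite cells without Uncx.

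Gates were also split by 1 or 2 genes, divisions chosen after the data had been seen. Of these genes, Meox1, Tcf15 and Uncx are also markers of the somite list and Mixl1 of a primitive streak list. Presomitic cells with a UMI of Meox1 or Tcf15, somite factors that come on as segments form, numbered 509 and 435, against 1260 and 781 without. The positive cells were deeper, with medians of 17492 and 15136 UMIs against 14353.5 and 12760. T was 2.46-fold lower in the positive cells (51.3 and 52.9 CPM) than in the negative cells (115 and 140 CPM; -1.30 ± 0.26, adjusted p = 0.016). Tbx6 had 182 and 179 CPM in positive and 203 and 236 CPM in negative cells and was not called (-0.28 ± 0.22, adjusted p = 1). Tbx18 was 11.4-fold higher in positive cells (3.43 and 5.28 CPM) than in negative cells, which had 4 and 2 UMIs (3.51 ± 0.51, adjusted p = 0.000247). Here 0.564% of genes were higher and 0.192% lower. Without the library block the adjusted p of T was 0.595. Whether T fell more than Tbx6 was not tested.

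Caudal epiblast cells with a UMI of Mixl1, a factor of cells leaving the primitive streak, numbered 180 and 53, against 1651 and 1100 without. T was 2.28-fold higher in Mixl1-positive cells (237 and 227 CPM) than in Mixl1-negative cells (105 and 87.9 CPM; 1.19 ± 0.24, adjusted p = 0.0387). Tbx6 was 2.53-fold higher, with 47.2 and 53.2 CPM in Mixl1-positive and 18.7 and 17.8 CPM in Mixl1-negative cells (1.34 ± 0.27, adjusted p = 0.0432). Neither gene's groups overlapped. Of all genes 0.186% were higher and 0.0482% lower. Without the library block neither gene was called, with adjusted p of 1 for T and 0.627 for Tbx6.

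Somite cells with Uncx, a marker of the rear part of the somite, numbered 148 and 163, against 269 and 207 without. Tbx18 had 6.39 and 12.3 CPM in Uncx-positive cells and 34.8 and 41.8 CPM in Uncx-negative cells. The groups did not overlap, but the difference of -2.05 ± 0.37 was not called (adjusted p = 0.192; unadjusted 4.17e-05). Only 0.00724% of 13808 genes were called higher and 0% lower by edgeR (320 genes had an unadjusted p under 0.05). DESeq2 was not run on this split. In gut endoderm, T had 46.4 and 13.5 CPM in 420 and 139 cells with Cdx2, a hindgut factor, and 3.59 and 12.8 CPM in 70 and 15 cells without. The difference was not called (2.94 ± 0.69, adjusted p = 0.203), replicate 2 alone gave 0.21, and edgeR called 0% of genes in each direction (1071 had an unadjusted p under 0.05).

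**Figure D4:**
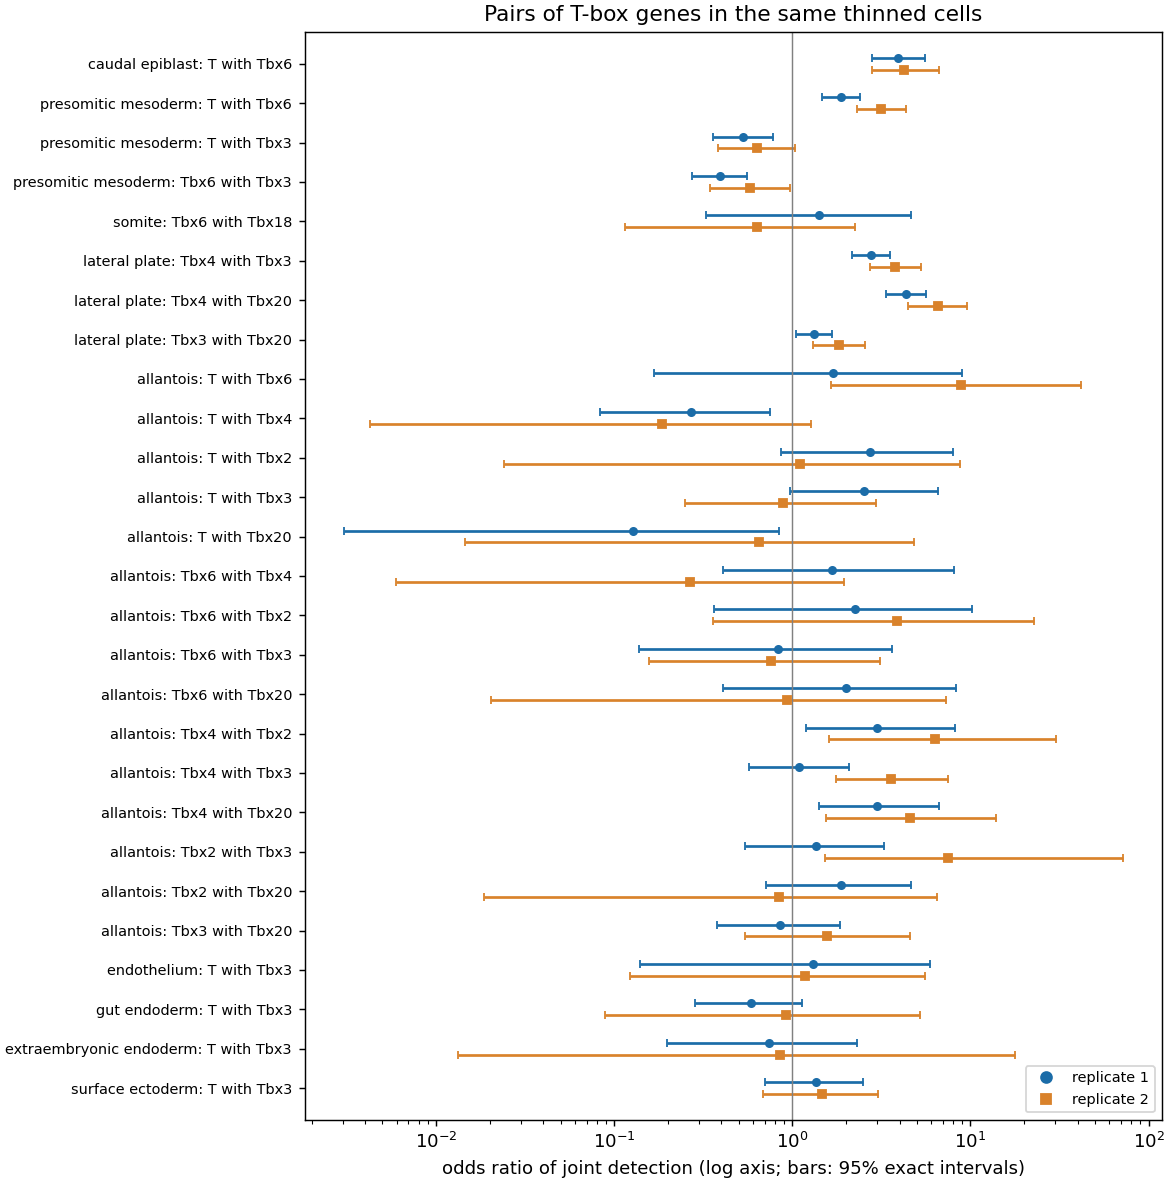
Odds ratio of finding both genes of a pair in the same cell, on a log axis with 95% exact intervals for each library, for 27 of the 29 pairs in which both genes were in at least 5% of thinned cells; 2 pairs with an odds ratio of 0 or without an upper bound are not drawn. T with Tbx6 lies above 1 in caudal epiblast and presomitic mesoderm, Tbx4 with Tbx20 in lateral plate and allantois, and Tbx6 with Tbx3 below 1 in presomitic mesoderm.

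Pairs of members were examined in single thinned cells, as a description without a test. In caudal epiblast, 10.7% and 8.72% of cells had both T and Tbx6, with odds ratios of 3.91 (95% exact interval 2.80 to 5.55) and 4.26 (2.79 to 6.62). In presomitic mesoderm 32.6% and 41.6% had both, with odds ratios of 1.88 (1.48 to 2.39) and 3.14 (2.29 to 4.32). Tbx6 with Tbx3 in presomitic mesoderm had odds ratios under 1, at 0.390 (0.273 to 0.558) and 0.576 (0.346 to 0.973). The intervals lay above 1 in both libraries for 7 pairs and below 1 for 1, and 19 of the drawn pairs were not on 1 side in both. Without thinning, Tbx6 with Tbx3 in presomitic mesoderm had an interval of 0.370 to 1.04 in replicate 2. That of Tbx3 with Tbx20 in lateral plate was 0.941 to 1.35 in replicate 1, so both then included 1.

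In lateral plate, Tbx4 was found with Tbx20 (odds ratios 4.34 and 6.57) and with Tbx3 (2.77 and 3.77), and Tbx3 with Tbx20 (1.33 and 1.84). In allantois Tbx4 was found with Tbx20 (2.99 and 4.55) and with Tbx2 (2.97 and 6.33). T and Tbx4 had odds ratios of 0.270 and 0.185 in allantois, with an interval of 0.00426 to 1.27 in replicate 2. Cells of a gate share a library and a range of depths, and the part of depth or of subtypes within a gate in these ratios was not tested.

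Genes known to depend on T or Tbx6 in mouse mesoderm formed a list of 12. In presomitic mesoderm minus caudal epiblast 7 were higher and 2 lower, where 2.83% of all genes were higher and 3.70% lower, and the list's median was 1.21, against -0.00054 over all genes. Mesp2, which sets the segment boundary, had 40.4 and 38.0 CPM in presomitic mesoderm and 0.769 and 0.110 CPM in caudal epiblast (5.83 ± 1.01, adjusted p = 0.00108). Snai1, a driver of the epithelial to mesenchymal transition, had 127 and 104 CPM in presomitic mesoderm and 14.02 and 8.12 CPM in caudal epiblast (3.42 ± 0.21, adjusted p = 3.07e-08). Pcdh8, a cell adhesion protein, Ripply2, Mesp1, Lef1, a Wnt effector, and Rspo3, a Wnt enhancer, were also higher. Fgf8, a growth factor of the tail end, was lower, with 170 and 127 CPM in presomitic mesoderm and 401 and 308 CPM in caudal epiblast (-1.26 ± 0.35, adjusted p = 0.0372), as was Cdx2 (-1.08 ± 0.24).

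In somite minus presomitic mesoderm 9 of these 12 genes were lower and 0 higher, where 3.17% of all genes were lower and 2.99% higher, and the list's median was -2, against -0.01 over all genes. Rspo3 had 44.9 and 32.5 CPM in somite and 323 and 365 CPM in presomitic mesoderm (-3.11 ± 0.31, adjusted p = 6.02e-06), and Fgf8 fell by 3.20 on the log2 scale. Pcdh8 (-0.66 ± 0.44), Ripply2 (-1.06 ± 0.77) and Mesp1 (-2.34 ± 0.77, adjusted p = 0.0744) were not called. In presomitic cells with Meox1 or Tcf15, the 4 genes called higher were Mesp1, Mesp2, Ripply2 and Pcdh8, all known in the forming segment, and Cdx2 was lower, where 0.564% of all genes were higher and 0.192% lower. Snai1 was the only gene of the list called in Mixl1-positive caudal epiblast (1.68 ± 0.31, adjusted p = 0.025). In lateral plate minus somite 3 were higher and 2 lower, where 6.12% of all genes were higher and 4.28% lower.

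Of 7 co-repressors and inhibitors of T-box factors, Ripply2 and Ripply1 were higher in presomitic mesoderm than in caudal epiblast, by 3.92 ± 0.86 (adjusted p = 0.00783) and 2.26 ± 0.56 (adjusted p = 0.00157). Of all genes 2.83% were higher there and 3.70% lower. Ripply2 is also in the list of genes dependent on T or Tbx6, so the lists are not independent. Ripply2 had 17.9 and 26.4 CPM in presomitic mesoderm and 1.74 and 0.276 CPM in caudal epiblast. In somite minus presomitic mesoderm, Ripply1 was higher (10.8 and 7.12 CPM in somite, 1.17 and 1.15 CPM in presomitic mesoderm; 2.81 ± 0.40, adjusted p = 0.000178). Tle1 was also higher there (1.03 ± 0.14) and Tle4 lower (-0.78 ± 0.17), where 2.99% of all genes were higher and 3.17% lower. In lateral plate minus somite Ripply2, Ripply1 and Tle1 were lower, where 6.12% of all genes were higher and 4.28% lower. Ripply3, Tle2 and Tle3 were called in none of these 3 comparisons.

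Of 7 other T-box genes, 2 passed the filter on low counts, Tbx22 and Mga. Tbx22 had 3 and 10 UMIs in somite and 0 and 2 UMIs in presomitic mesoderm, and was called higher (2.35 ± 0.98, adjusted p = 0.0428). Mga, a large protein with both a T-box and another DNA-binding domain, differed by -0.11 ± 0.13 in the same comparison and by -0.01 ± 0.12 in presomitic mesoderm minus caudal epiblast.

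The genes most like each member were ranked by the lower of the 2 libraries' Pearson r over the 12 gates, on log2(CPM + 5), among 8296 genes. The gates of a library share a suspension, and r carries no test. D230030E09Rik, a long noncoding RNA, followed T with r of 0.899 and 0.893, then Cpa6. Gnal (0.862 and 0.851) and Rspo3 followed Tbx6. Foxd2 (0.983 and 0.980) and Dmrt2 (0.984 and 0.977) followed Tbx18. Pitx1, a hindlimb factor, followed Tbx4 with r of 0.963 and 0.963 and Tbx20 with r of 0.979 and 0.895, together with Gm47071, an antisense gene that overlaps Pitx1.

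Smad6 (0.905 and 0.968) and Id1 (0.889 and 0.876), both known targets of bone morphogenetic protein signalling, followed Tbx3, and Rgs5 (0.870 and 0.869) and Smad7 followed Tbx2. Wnt2 (0.916 and 0.912) and Gm34030 followed Tbx5. For Tbx1 (Elmo1, Jmjd1c) and Eomes (Ascc3, Hopx) the pattern rests on few UMIs.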

How the data were processed

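The authors deposited raw UMI counts by gene and barcode for 2 libraries. Per the submitters' processing notes, these were made with Cell Ranger 6.1.1 and the mm10 genome; the sources used here give neither annotation nor strand setting. The files held 30449 and 18245 barcodes, with 500 UMIs the lowest total. Barcodes with at least 2000 UMIs and 0.3 to 10% mitochondrial UMIs were kept, so 11242 and 5184 barcodes under the lower bound were left out of the comparisons. Scrublet (Scanpy 1.11.5) marked 6.21% and 2.08% of the 22486 and 13512 barcodes scored, where 24.4% and 14.6% were expected from the number of barcodes deposited; 970 and 273 of those marked were among the barcodes kept, and their removal was tried as an alternative. Gates with at least 50 cells per library were tested.

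UMI counts of each gate and library were summed and fitted with edgeR 4.0.16 in R 4.3.3 (two-sided quasi-likelihood F test, filterByExpr, TMM, prior count 2) with library as a term, and Benjamini-Hochberg adjustment ran over every gene tested in a contrast. Gates of 1 library come from 1 suspension, which is the source of the pairing: over 66 pairs of gates, deviations of same-library sums from the gate means correlated across 14533 genes with r between 0.0757 and 0.714 (median 0.313). The p values measure the spread between these libraries that is left within gates after the library term, estimated together over all gates of a fit. Separate embryo pools are not stated for the libraries, so this spread may be technical. The log2 differences given include the prior count, which shrinks those of low counts. Each SE was derived from the difference without the prior count and the F value of its test. An SE is therefore not the exact error of the difference beside it, least so at low counts. For contrasts against the mean of the other gates, genes without a count in some gate were not read, a restriction made after the values were seen. On simulated counts with 100 genes changed 2-fold and 100 changed 4-fold, the same fit recovered 61 and 86 for presomitic mesoderm minus caudal epiblast and 56 and 73 for allantois minus lateral plate and 41 and 64 for notochord minus lateral plate, with 19, 11 and 6 false calls among 14333 unchanged genes.

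Shares of cells were taken after thinning to 9000 UMIs per cell (seed 11), with exact Clopper-Pearson intervals; intervals cover counting error only. Named genes were the 10 members, the 2 genes most like each by the stated rule (highest gate mean at least 20 CPM, markers left out) and 3 lists: other T-box genes, co-repressors, and genes dependent on T or Tbx6. The members and lists were chosen with earlier results of these data known. Alternatives were DESeq2 1.42.0, its size factors, no filter on low counts, other gates, depth and mitochondrial bounds, doublet removal, no library block and each library alone. Positions came from a GRCm38 annotation matched by gene identifier. Python 3.11.15, numpy 2.4.6, scipy 1.17.1 and pandas 2.3.3 were used.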

Additional observations from a re-analysis of the deposited data

Results flagged for a closer look

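Tbx4 was found in barcodes that no comparison used. The primordial germ cell gate held 18 barcodes in replicate 1 and 12 in replicate 2, too few for the tests. Tbx4 reached 38.6 CPM there in replicate 1 (15 UMIs, 95% Poisson interval 21.6 to 63.7) and 25.2 CPM in replicate 2 (6 UMIs, 9.26 to 54.9). A member was flagged only if its interval in this gate lay above that of neural cells in both libraries. That Tbx4 was above neural cells, 2.20 and 0.739 CPM in the same libraries, therefore follows from the rule. The levels were below those of allantois, 149 and 63.2 CPM, and the intervals included those of lateral plate, 48.1 and 27.6 CPM. Scrublet marked 0 and 2 of the barcodes as doublets. At 9000 UMIs per cell, 3 cells of each library had a Tbx4 UMI. The difference between the gates was not tested.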

How the results depend on the processing

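Of the members' values in comparisons of 2 tissues, 204 recomputed under an alternative counted as the same, 7 lost the call, 3 gained one and 2 moved. Against the mean of the other gates, 319 were the same, 15 lost the call, 17 moved and 1 reversed: Tbx2 in extraembryonic endoderm, -2.12 without replicate 1, 1.63 without replicate 2 and 1.33 with both. In fits to both libraries, the same means that direction and call were kept. A library alone has no call, and there it means a shift no larger than the SD of the 2 single-library values. For genes not called, the sign of such values was not checked. They were 22 without replicate 1 and 24 without replicate 2 among the 204, and again 22 and 24 among the 319. With all 10 members read, 27 tests in place of 15 were called higher, and the restriction to 5 members was made after the values were seen. Of the odds ratios, 54 without thinning lay within the interval of the thinned value, and 1 did not, T with Tbx6 in presomitic mesoderm of replicate 2 at 5.06. A ratio within that interval can still have an unthinned interval that includes 1. This held for Tbx6 with Tbx3 in presomitic mesoderm of replicate 2 and for Tbx3 with Tbx20 in lateral plate of replicate 1.

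The block for library, which pairs gates of a library, decided many calls. With no replicate block, calls against the other gates fell to 10 of the lower kind (17 with it), and over all genes to 10764 higher and 6930 lower (17769 and 14472). Genes called higher and lower were 144 and 110 in presomitic mesoderm minus caudal epiblast (411 and 538), 160 and 175 in somite minus presomitic mesoderm (435 and 460) and 392 and 274 in lateral plate minus somite (890 and 622). They were 31 and 3 in allantois minus lateral plate (129 and 43), with 0 members in place of 1, and 10 and 1 in Foxf1-positive minus Prrx1-positive cells (77 and 24). In presomitic cells with Meox1 or Tcf15 they were 19 and 0 (82 and 28), with 0 members lower in place of 1, and in Mixl1-positive cells 3 and 0 (27 and 7), with 0 members higher in place of 2. The cause was not tested.

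In lateral plate minus somite, 2 members were lower with no lower bound on mitochondrial UMIs (Tbx6 added), in place of 1. In allantois minus lateral plate, the members called higher were 0 with DESeq2 and with gates of at least 4 markers, and 2 with Scrublet doublets removed (T added, adjusted p = 0.0372) and with no filter on low counts (Tbx2 added, adjusted p = 0.0313), while 1 was lower with no filter (Tbx5, adjusted p = 0.0450). Genes there were 10 higher and 4 lower with gates of at least 4 markers, and 95 lower with no filter. In the Foxf1 and Prrx1 split, 1 member and 160 genes were higher and 47 lower with no filter, 39 were higher and 12 lower with gates of at least 4 markers, 48 were lower with DESeq2 and 15 with no lower bound on mitochondrial UMIs. With 1 library alone there is no spread between libraries and no test.

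Depth set the shares: without thinning the mean share over libraries was 81.0% for Tbx6 in presomitic mesoderm, 50.8% for Tbx3 in allantois, 27.0% for Tbx18 in somite, 7.52% for Tbx5 in lateral plate and 1.75% for Eomes in gut endoderm. As a mean of per-cell CPM, Tbx6 in presomitic mesoderm was 222 in place of 204. Tbx1, Tbx5 and Eomes rest on few UMIs, and their differences between most gates were not detectable at this depth.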

Other observations

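Barcodes with under 0.3% mitochondrial UMIs were left out of the comparisons. In presomitic mesoderm Tbx6 had 256 and 279 CPM in 1968 and 557 such barcodes of replicates 1 and 2, against 196 and 213 CPM in the barcodes used. T had 93.9 and 60.4 CPM there, against 93.6 and 105 CPM. In allantois Tbx4 had 197 and 62.8 CPM, against 149 and 63.2 CPM. Somite differed: Tbx6 had 33.3 and 47.7 CPM in 408 and 212 barcodes under the bound, against 6.78 and 9.11 CPM in those used, so that the ranges did not overlap. Tbx18 in somite had 17.3 and 3.98 CPM under the bound, against 24.2 and 28.3 CPM. These barcodes were shallower, with medians of 6563.5 and 5578.5 UMIs in the somite gate, and the difference was not tested.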
